A study of Mus musculus with 25 samples.

Results

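RNA of the high mobility group (HMG) proteins and of prothymosin alpha was followed in mouse 2-cell embryos and blastocysts. The 10 genes were Hmgn1, Hmgn2, Hmgn3, Hmgn5, Hmgb1, Hmgb2, Hmgb3, Hmga1, Hmga2 and Ptma, taken by gene symbol from tables of 24708 gene loci carrying 24257 symbols, and each sat at 1 locus. The set was put together with results of the 2-cell comparisons in view, in which Hmgn2 and Ptma were among the leading genes of IVF against WT and Ptma of sIVF against IVF. Values of the members in the 2-cell comparisons are therefore given as a description, and nothing is supported with a test of them. The blastocyst comparison is of other libraries and was tested. The comparison between stages was tested too, but it shares the WT 2-cell libraries with the comparisons that led to the choice. Its tests are therefore not independent of that choice.

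All embryos were of the BDF1 strain. The 11 libraries were 2-cell embryos of embryonic day 1.5 labelled WT, sIVF or IVF (in vitro fertilisation), with 2 libraries each, and blastocysts of embryonic day 4.0 labelled Fzr1-OE (3 libraries) or Control (2 libraries). Left unexplained by the labels are the term sIVF, how Fzr1 was raised, what the Control blastocysts received or how many embryos a library held. Fzr1, which encodes an activator of a ubiquitin ligase of the cell cycle, stood at 12.7, 15.5 and 17.1 FPKM in these libraries and at 16.5 FPKM in both Control libraries. The blastocysts are for that reason called libraries labelled Fzr1-OE. Fat RNA and bisulfite samples of 4-month-old mice are touched on once below, and 6 H3K9me3 and input samples were not analysed here.

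Values are FPKM, fragments normalised to transcript length and to library size, so levels can be set side by side between genes. The confidence bounds in the tables implied 4742698 to 6377606 fragments at genes in the 2-cell libraries and 9324167 to 10483442 in those of blastocysts, with 10085 to 11860 and 13658 to 13947 loci above 0. Blastocyst lineage genes summed to 5654 to 5701 FPKM in Control and to 3640 to 3699 FPKM in the libraries labelled Fzr1-OE, but only to 19.2 to 32.1 FPKM across the 2-cell libraries. Most of the blastocyst sums came from Krt8 and Krt18, with means of 1507 and 3864 FPKM in Control. In the libraries labelled Fzr1-OE these averaged 989 and 2393 FPKM. The median log2 difference over the 12 lineage genes tested was 0.07. Genes of the 2-cell stage summed to 56.2 to 127 FPKM in 2-cell libraries, 0.0273 to 0.405 FPKM in Control blastocysts and 15.4 to 19.4 FPKM in the libraries labelled Fzr1-OE. The summed cumulus cell markers reached at most 3.92 FPKM in any group. The 6 loci of blood cell markers summed to 0.857 to 7.43 FPKM in 2-cell libraries and to 0.906 to 2.46 FPKM in blastocysts. Of these, Ptprc, the common leukocyte antigen, was listed at 0 in all 11 libraries.

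HMGN proteins bind nucleosomes and loosen chromatin by competing with linker histone H1, HMGB proteins carry a pair of HMG boxes that bend DNA, and HMGA proteins bind the minor groove of AT-rich DNA through AT hooks. Prothymosin alpha is a small, extremely acidic and unstructured nuclear protein that binds histone H1 and acts as a linker histone chaperone. In the early embryo these proteins act while parental chromatin is remodelled and the embryonic genome starts to be transcribed.

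RefSeq promoter windows of GRCm38.p6, from 250 bases before to 50 bases after a gene's start, were found for 9 of the 10 genes, in 11 windows. Of the 4 windows below, those of Hmgn2 and Ptma are shown because IVF had the highest Hmgn2 and the lowest Ptma of the 2-cell groups. Hmgb2 and Hmgb3 share a promoter motif and differ in their course between stages on FPKM as deposited. On the other scalings used below, both were lower in the blastocyst. Capitals mark CCAAT, the core of the CCAAT box, or its reverse complement ATTGG. These coordinates are of GRCm38.p6 and not of mm9, the build of the expression tables.
Hmgn2, chr4:133967942-133968241, minus strand: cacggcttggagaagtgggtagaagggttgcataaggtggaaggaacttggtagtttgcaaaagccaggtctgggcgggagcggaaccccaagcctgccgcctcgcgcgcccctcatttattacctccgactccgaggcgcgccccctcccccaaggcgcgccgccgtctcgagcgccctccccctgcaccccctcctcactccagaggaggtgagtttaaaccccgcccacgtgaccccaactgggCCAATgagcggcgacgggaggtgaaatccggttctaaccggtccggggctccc
Ptma, chr1:86526307-86526606, plus strand: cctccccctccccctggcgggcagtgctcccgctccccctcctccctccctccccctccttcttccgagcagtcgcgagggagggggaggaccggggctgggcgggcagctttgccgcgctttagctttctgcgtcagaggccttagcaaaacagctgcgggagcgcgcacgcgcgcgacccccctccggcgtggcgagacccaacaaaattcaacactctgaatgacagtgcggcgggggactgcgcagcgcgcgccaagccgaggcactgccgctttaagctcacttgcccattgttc
Hmgb2, chr8:57511593-57511892, plus strand: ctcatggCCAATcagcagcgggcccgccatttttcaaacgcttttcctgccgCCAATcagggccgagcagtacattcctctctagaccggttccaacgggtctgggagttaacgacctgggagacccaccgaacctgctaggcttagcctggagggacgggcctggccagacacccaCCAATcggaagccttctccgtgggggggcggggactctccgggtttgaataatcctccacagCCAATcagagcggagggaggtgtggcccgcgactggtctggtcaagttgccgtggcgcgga
Hmgb3, chrX:71555667-71555966, plus strand: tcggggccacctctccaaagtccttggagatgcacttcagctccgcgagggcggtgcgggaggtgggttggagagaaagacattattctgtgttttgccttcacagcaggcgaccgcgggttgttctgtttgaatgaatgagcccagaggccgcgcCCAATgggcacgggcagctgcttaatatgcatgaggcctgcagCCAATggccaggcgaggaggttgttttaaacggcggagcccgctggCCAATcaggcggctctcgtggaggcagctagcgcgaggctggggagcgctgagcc

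CCAAT, read on both strands and counted on its own without regard to overlap with other motifs, occurred in 6 of the 11 members' windows and in 37.4% of 32851 windows of the same length. The Hmgb2 window held 4 matches, at positions -243, -198, -73 and -11 from the gene's start, and the Hmgb3 window held 3, at -94, -51 and -5. One of the Hmgb1 windows also held 3 matches, and 3 or more matches occurred in 3.4% of all windows. The Hmgn1 and Hmgn5 windows held 2 matches each and the Hmgn2 window 1, while these letters were not in the Ptma, Hmga2 and Hmga1 windows. The members' windows ranged from 56.7% to 77% in GC content, against a median of 52.7% over all windows. TATAAA, the TATA box core, was in 0 of the members' windows and in 13.6% of all windows. A match of letters is a description of the sequence and not a binding site.

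Hmgn2 was the most abundant member in sIVF and IVF 2-cell embryos and Ptma the most abundant in both blastocyst groups. In WT 2-cell embryos Hmgb1 led with a mean of 699 FPKM, followed by Hmgn2 at 606 FPKM and Ptma at 320.3 FPKM. In sIVF 2-cell embryos Hmgn2 led at 823 FPKM, ahead of Hmgb1 at 648 FPKM. In IVF 2-cell embryos Hmgn2 came first at 1139 FPKM and Ptma was the fifth of the 10 at 132.5 FPKM. In Control blastocysts Ptma led at 934 FPKM, ahead of Hmgn2, Hmgb1 and Hmgn1 at 528, 458 and 449 FPKM. The 10 genes together took 0.707% to 0.758% of the summed FPKM in the 2-cell libraries, 0.500% to 0.509% in Control blastocysts and 0.542% to 0.550% in the libraries labelled Fzr1-OE.

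**Figure D1:**
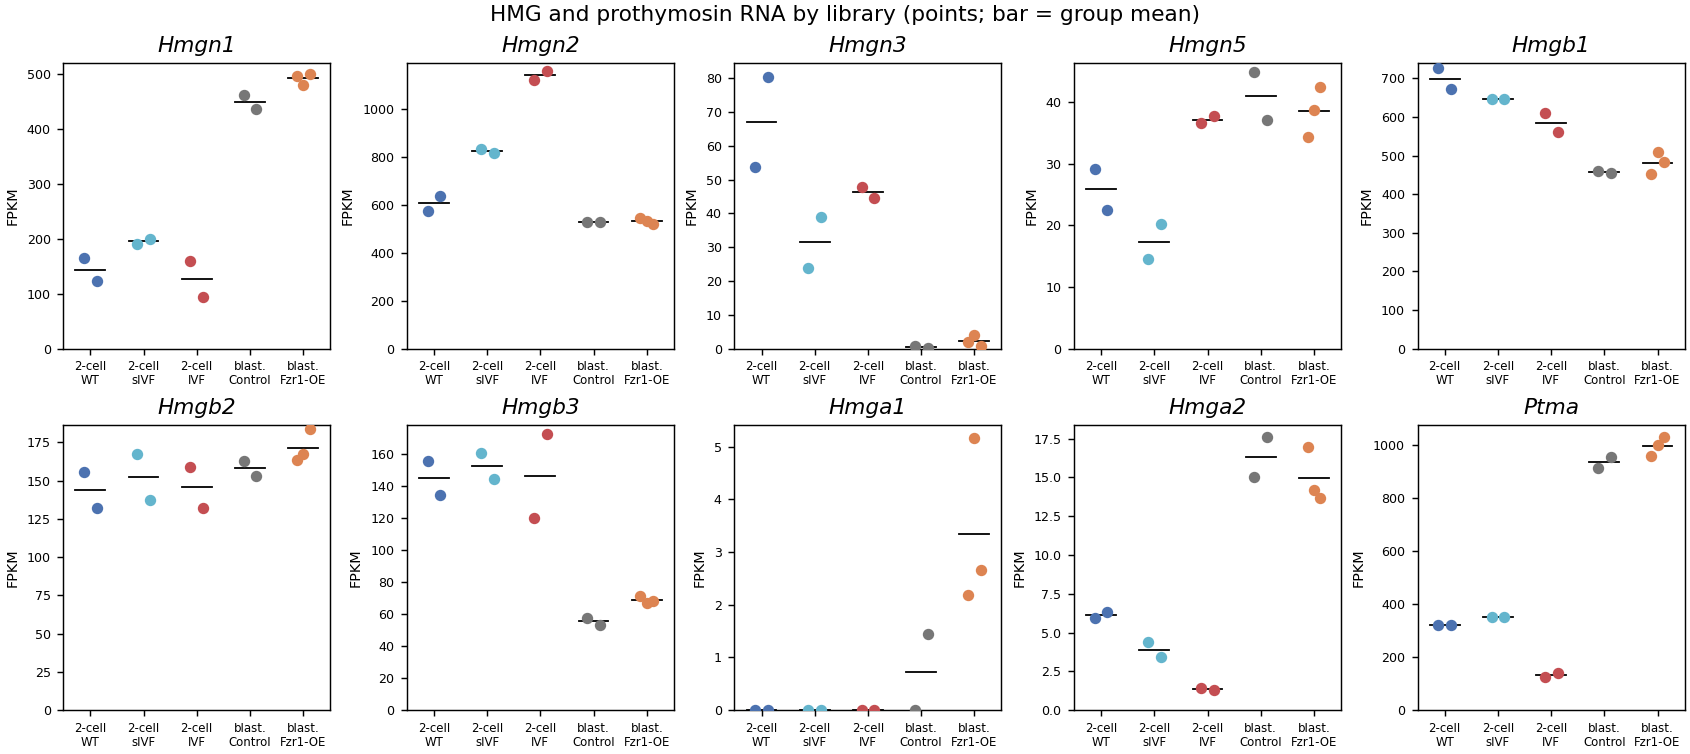
FPKM (linear axis from 0) of each of the 10 genes in every library, grouped by stage and label, with points for libraries and a bar for the group mean. The 2 IVF libraries are the highest for Hmgn2 and the lowest for Ptma, and Ptma and Hmgn1 are higher in all 5 blastocyst libraries than in any 2-cell library.

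Hmgn2, at chr4:133520654-133523906 in mm9, encodes a nucleosome-binding protein expressed in most dividing cells. It stood at 575 and 637 FPKM in the WT 2-cell libraries, 832 and 813 FPKM in sIVF, and 1121 and 1158 FPKM in IVF. The 3 groups did not overlap, with WT lowest, sIVF between and IVF highest. The IVF mean of 1139 ± 26.3 (SD, n = 2) was 1.88-fold the WT mean of 606 ± 43.5 (SD, n = 2), a log2 difference of 0.91 (SE 0.13) on the scale of log2(FPKM + 1). In blastocysts Hmgn2 was nearly flat, at 528 and 529 FPKM in Control and 546, 531 and 520.1 FPKM in the libraries labelled Fzr1-OE, and the groups overlapped.

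Ptma, at chr1:88423311-88427273, was lowest in IVF, where Hmgn2 was highest. Its level was 321 and 319.6 FPKM in WT, 352 and 349 FPKM in sIVF, and 125 and 140.4 FPKM in IVF. Both IVF libraries were far below the other 4, and sIVF sat slightly above WT. The WT mean of 320.3 ± 0.919 (SD, n = 2) was 2.41-fold the IVF mean of 132.5 ± 11.1 (SD, n = 2), and the sIVF mean was 2.64-fold the IVF mean. On the log2 scale IVF differed from WT by -1.27 (SE 0.17) and sIVF from IVF by 1.40 (SE 0.17). These contrasts share libraries, since WT and IVF each enter 2 of the 3 comparisons.

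The ratio of Ptma to Hmgn2 within a library does not depend on the scaling of that library. It was 0.558 and 0.502 in WT, 0.423 and 0.430 in sIVF, and 0.111 and 0.121 in IVF. In blastocysts it was 1.73 and 1.81 in Control and 1.75, 1.88 and 1.98 in the libraries labelled Fzr1-OE. Ptma thus outnumbered Hmgn2 per length in every blastocyst library and in no 2-cell library. The ratio ranges of WT, sIVF and IVF did not overlap, and those of the 2 blastocyst groups did.

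**Figure D2:**
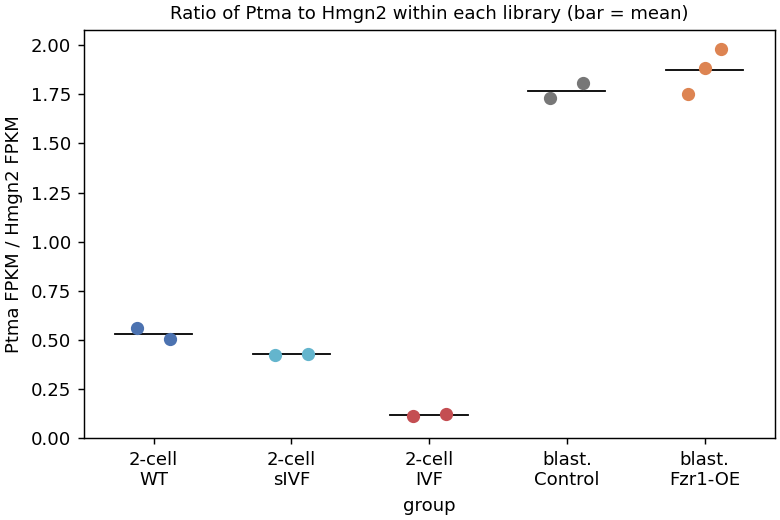
Ratio of Ptma FPKM to Hmgn2 FPKM (linear axis from 0) in each of the 11 libraries, by group, with a bar for the group mean. The IVF libraries lie at 0.111 and 0.121, below all other libraries, and the 5 blastocyst libraries lie between 1.73 and 1.98.

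None of the other HMGN genes had the order of Hmgn2 over WT, sIVF and IVF, although Hmgn5 was also highest in IVF. Hmgn1, at chr16:96343195-96349332, encodes the closest relative of Hmgn2 and stood at 165.0 and 122 FPKM in WT, 190.1 and 200.4 FPKM in sIVF, and 159 and 93.2 FPKM in IVF. The WT and IVF ranges overlapped, and sIVF was above both. The IVF libraries differed 1.70-fold from each other although the deposited bounds lay within 3.8% and 5.47% of their values. Hmgn5, an X-linked member with a long acidic tail at chrX:106199876-106208719, stood at 29.2 and 22.5 FPKM in WT, 14.5 and 20.2 FPKM in sIVF, and 36.6 and 37.8 FPKM in IVF. Its groups did not overlap, with IVF highest and sIVF lowest. Hmgn3, at chr9:83003549-83040214, stood at 53.7 and 80.5 FPKM in WT, 23.8 and 39.1 FPKM in sIVF, and 47.9 and 44.7 FPKM in IVF, so that both sIVF libraries were the lowest. On the log2 scale sIVF differed from WT by -1.08 (SE 0.34) for Hmgn3, by -0.56 (SE 0.34) for Hmgn5 and by 0.46 (SE 0.28) for Hmgn1.

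The HMGB genes differed little between the 2-cell groups. Hmgb1, at chr5:149858804-149864613, encodes an abundant DNA-bending protein that also acts as an alarm signal outside cells. It stood at 726 and 672 FPKM in WT, 648 and 648 FPKM in sIVF, and 610.3 and 561 FPKM in IVF. The order WT, sIVF, IVF held without overlap, but the IVF mean was lower than the WT mean by 1.19-fold only. Hmgb2, at chr8:59990640-59994796, a relative found in dividing cells, stood at 156 and 132 FPKM in WT, 167 and 138 FPKM in sIVF, and 159 and 132 FPKM in IVF. Hmgb3, at chrX:68809092-68813848, stood at 156 and 135 FPKM in WT, 161 and 144 FPKM in sIVF, and 119.9 and 172.5 FPKM in IVF. Hmgb2 and Hmgb3 overlapped between all 3 groups, with log2 differences from WT between -0.01 and 0.08.

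The HMGA genes were low. Hmga2, at chr10:119798331-119913991, encodes an architectural protein of embryonic and undifferentiated cells. It stood at 5.96 and 6.31 FPKM in WT, 4.39 and 3.42 FPKM in sIVF, and 1.45 and 1.27 FPKM in IVF. The 3 groups did not overlap, and the log2 difference of IVF from WT was -1.60 (SE 0.57), an understatement for a gene this low since 1 is added to each value. Hmga1, at chr17:27693519-27700617, was below 0.001 FPKM in all 6 2-cell libraries, a level written as 0 here for any gene. Processed copies of Hmgn2, Hmgb1, Hmga1 and Ptma are frequent in mammalian genomes, and how reads shared with them were counted is not given in the sources used here, so these levels are uncertain to that extent.

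Of the 9 members with a mean of at least 1 FPKM, 6 had WT and IVF ranges that did not overlap, against 42.2% of the 8246 loci tested. The corresponding counts were 7 of 9 for sIVF against WT, with 35.9% of all loci, and 7 of 9 for sIVF against IVF, with 42.7%. For completeness, limma at an adjusted p under 0.05 called 0.0121% of all loci in IVF against WT and 0% in the other 2-cell comparisons, and 0 of the 9 members were among them. Because these comparisons led to the choice of the genes, nothing is read from the counts. The median log2 difference over the members was -0.22 for IVF against WT and 0.07 for sIVF against WT, beside 0.09 and 0.06 over all loci.

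Genes of other cells or stages also varied between the 2-cell groups. Oocyte transcripts summed to 101 to 133 FPKM in WT, 199 to 227 FPKM in sIVF and 144 to 204 FPKM in IVF, over 10 genes. The 12 loci of 2-cell-stage genes summed to 81.4 to 127 FPKM in WT, 83.4 to 110.5 FPKM in sIVF and 56.2 to 66.6 FPKM in IVF. All 7 sperm markers were listed at 0 in WT and sIVF and summed to 0.102 to 3.25 FPKM in IVF. They were not particular to IVF, with sums of 4.04 to 4.58 FPKM in Control blastocysts and 2.3 to 3.61 FPKM in the libraries labelled Fzr1-OE. The part of these oocyte, 2-cell-stage and sperm genes in the members' differences was not tested. In whole embryos, fewer cells expressing a gene and less of its RNA per cell cannot be told apart.

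Partners of these proteins were described from lists compiled alongside the members. Measured in 2-cell embryos were 25 HMG-box and acidic chromatin proteins, 4 linker histones and 6 prothymosin partners or Hmgb1 receptors, and they too are only described. The first of these lists also holds the transcription factor Yy1, which its name does not describe. H1f0, the replacement linker histone, stood at 3.47 and 2.62 FPKM in WT, 4.93 and 3.73 FPKM in sIVF, and 12.5 and 13.8 FPKM in IVF. Xpo1, the main nuclear export receptor, stood at 74.9 and 82.9 FPKM in WT, 50.7 and 71.4 FPKM in sIVF, and 33.8 and 37.7 FPKM in IVF. Both genes had IVF libraries outside the range of the other 4, but they were picked after their values had been seen, so nothing is read from that. Ptms, which encodes the prothymosin relative parathymosin, was listed at 0 in all 2-cell libraries, and so were Ager, Tlr2, Tlr4 and Tlr9, receptors for Hmgb1 released from cells.

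**Figure D3:**
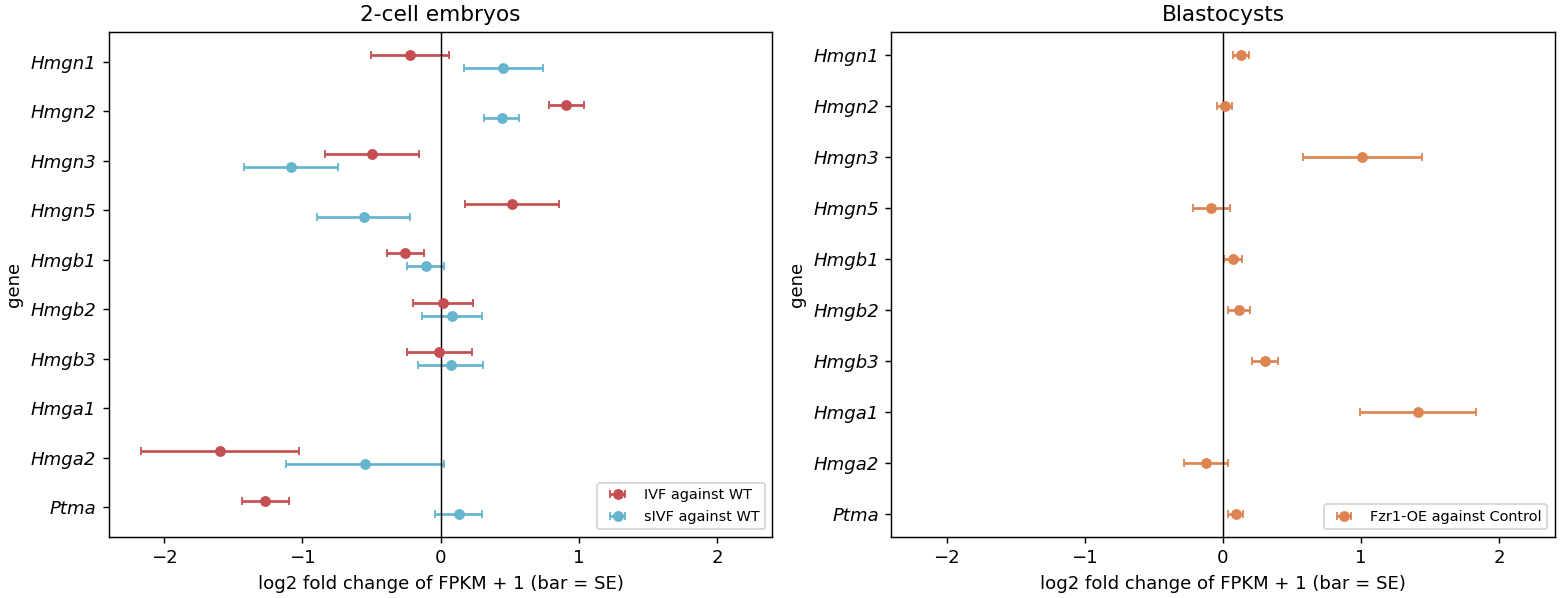
Log2 fold change of FPKM + 1 with its standard error for each gene, for IVF and sIVF against WT in 2-cell embryos and for Fzr1-OE against Control in blastocysts. Hmgn2 and Ptma lie on opposite sides of 0 for IVF against WT, at 0.91 and -1.27, while the blastocyst values of both lie within 0.10 of 0; Hmga1 was not tested in 2-cell embryos.

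The libraries labelled Fzr1-OE were compared with Control blastocysts to ask how the embryo responds to that label. None of the 10 members passed, with 0 of 10 called by limma against 4.21% of 9439 loci (2.29% higher and 1.92% lower). Before adjustment, p was under 0.05 for 3 of 10 members, Hmga1, Hmgb3 and Hmgn3, beside 19.7% of all loci. The ranges of the 2 groups did not overlap for 5 of 10 members, all 5 with Fzr1-OE higher, beside 37.4% of all loci. Hmga1 and Hmgn3, with Control means of 0.719 and 0.480 FPKM, passed the filter on low values through the libraries labelled Fzr1-OE. Hmga1 is also among the 5 without overlap, so nothing is read from the unadjusted and overlap counts. The members' median log2 difference was 0.10, against 0.005 for all loci.

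Hmgb3 had the clearest separation among the well-expressed members. It stood at 71.1, 67.2 and 68.0 FPKM in the libraries labelled Fzr1-OE while Control had 57.9 and 53.2 FPKM. All 3 Fzr1-OE libraries were above both Control libraries, with a log2 difference of 0.30 (SE 0.10, limma adjusted p 0.116). Hmgn1 stood at 496, 479.9 and 499.6 FPKM against 462.5 and 436 FPKM, a log2 difference of 0.13 (SE 0.06, adjusted p 0.268). Ptma stood at 956.5, 999.8 and 1031 FPKM against 913 and 955 FPKM, a log2 difference of 0.09 (SE 0.06, adjusted p 0.407). Hmgb2, at 163, 167 and 184 FPKM against 163 and 153 FPKM, separated only narrowly, with 163.4 FPKM as its lowest Fzr1-OE value and 163.1 FPKM as its highest Control value (log2 difference 0.12, SE 0.08, adjusted p 0.483).

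The remaining members overlapped or were near the limit of detection. Hmgb1 stood at 451, 510.5 and 485 FPKM against 460.5 and 455 FPKM, and Hmgn5 at 34.3, 38.8 and 42.5 FPKM against 44.8 and 37.0 FPKM. Hmga2 stood at 17.0, 14.2 and 13.7 FPKM against 15.0 and 17.6 FPKM. The log2 differences of Hmgb1, Hmgn5, Hmga2 and Hmgn2 were 0.07, -0.08, -0.12 and 0.01, with adjusted p from 0.611 to 0.941. Hmgn3 was at 1.80, 4.07 and 0.743 FPKM against 0.778 and 0.181 FPKM, levels that rest on 42 implied fragments or fewer per library (log2 difference 1.01, SE 0.43, adjusted p 0.234, with a pseudocount of 0.1 a difference of 1.92). Hmga1 was at 2.19, 5.16 and 2.67 FPKM against 0 and 1.44 FPKM (log2 difference 1.41, SE 0.42, adjusted p 0.1). That difference was 0.77 without Control replicate 1, the library at 0, 2.06 without Control replicate 2 and 3.04 with a pseudocount of 0.1.

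Among partner genes, 2 of 24 HMG-box and acidic chromatin proteins rose and 0 fell, beside 2.29% and 1.92% of all loci. Nap1l1, a nucleosome assembly chaperone, stood at 85.1, 85.2 and 84.8 FPKM in the libraries labelled Fzr1-OE and 63.5 and 61.8 FPKM in Control (log2 difference 0.44, SE 0.09, limma adjusted p 0.0259). Npm1, the nucleolar histone chaperone nucleophosmin, stood at 769.7, 754 and 763 FPKM against 662 and 636 FPKM (log2 difference 0.23, SE 0.05, adjusted p 0.0452). Without Control replicate 2 the adjusted p was 0.164 for Nap1l1 and 0.246 for Npm1. Without Control replicate 1 it was 0.1 and 0.11, without Fzr1-OE replicate 2 it was 0.0761 and 0.109, and without Fzr1-OE replicate 3 it was 0.0795 and 0.149. Without Fzr1-OE replicate 1 the Npm1 value was 0.0631. The list's median log2 difference was 0.12, against 0.005 for all loci. Of 7 linker histones and 7 prothymosin partners or Hmgb1 receptors, 0 were called by limma, and the smallest adjusted p among them were 0.119 for the linker histone Hist1h1a and 0.152 for Trp53. Without a filter on low values the adjusted p was 0.0631 for Nap1l1 and 0.137 for Npm1, and without an intensity trend 0.179 and 0.359. Of 12 tested blastocyst lineage genes, 3 fell (Krt8, Krt18 and Eomes), 1 rose (Gata6) and 8 did not pass, with a median log2 difference of 0.07. None of these 4 was called without a filter on low values (limma adjusted p 0.056 to 0.166) or without an intensity trend (0.0874 to 0.158). Cdx2, a trophectoderm factor, stood at 9.33, 6.56 and 9.18 FPKM against 6.78 and 9.21 FPKM. Of the 12 loci of 2-cell-stage genes only 4 were tested, and among them Tdpoz4 averaged 6.61 FPKM in the libraries labelled Fzr1-OE and 0 FPKM in Control. Such loci passed the filter through 1 group, so no count of them is read. The part of these differences in the members' values was not tested.

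Control blastocysts were set against WT 2-cell embryos to place the genes along early development. The WT libraries are the ones used in the 2-cell comparisons above. Of 9 members tested, 6 were called, 3 higher and 3 lower in the blastocyst, beside 60.7% of 9694 loci (42.6% higher and 18.1% lower). The members' share called was thus near the background. Hmgn3, with a Control mean of 0.480 FPKM, passed the filter through the WT libraries and is among the 6. The ranges of the 2 groups did not overlap for 8 of 9 members, beside 82.9% of all loci. The median log2 difference was 0.92 over all loci and 0.14 over the members, and changes are best read against that shift. Stage and the batch in which a library was made cannot be told apart.

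Prothymosin, Hmgn1 and Hmga2 rose. Ptma went from 320.3 FPKM in WT 2-cell embryos to 934 ± 29.5 (SD, n = 2) in Control blastocysts, 2.91-fold, with a log2 difference of 1.54 (SE 0.07, limma adjusted p 0.00151). Hmgn1 went from 144 ± 30.2 to 449 ± 18.4 FPKM (SD, n = 2 each), 3.15-fold, with a log2 difference of 1.65 (SE 0.18, adjusted p 0.00499). Hmga2 went from 6.13 to 16.3 FPKM, with a log2 difference of 1.28 (SE 0.21, adjusted p 0.0123). In none of these genes did the ranges of the 2 groups overlap.

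Hmgn3, Hmgb3 and Hmgb1 fell. Hmgn3 was nearly lost, from 67.1 ± 18.9 FPKM to 0.480 ± 0.422 FPKM (SD, n = 2 each), and fell by 5.53 on the log2 scale (SE 0.36). Its call is not read, since Hmgn3 passed the filter through the WT libraries. Hmgb3 went from 145 ± 14.9 to 55.6 ± 3.32 FPKM (SD, n = 2 each), with a log2 difference of -1.37 (SE 0.15, limma adjusted p 0.00493). Hmgb1 went from 699 ± 38.2 to 458 ± 3.90 FPKM (SD, n = 2 each), with a log2 difference of -0.61 (SE 0.07, adjusted p 0.00613). The 3 that did not pass were Hmgn5 (0.65, SE 0.23, adjusted p 0.0798), Hmgb2 (0.14, SE 0.14, adjusted p 0.43) and Hmgn2 (-0.20, SE 0.08, adjusted p 0.112).

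Several of these calls depended on the scaling. With libraries set to one distribution of values (quantile normalization), Ptma and Hmgn1 were still higher in the blastocyst, at 0.82 (adjusted p 0.00326) and 0.85 (adjusted p 0.0144), and Hmga2 was not called (0.45, adjusted p 0.187). Hmgn2 was then called lower (-0.94, adjusted p 0.0038) and so was Hmgb2 (-0.68, adjusted p 0.0145), while the split over all loci moved from 4126 higher and 1758 lower to 2648 and 2822. The difference between stages also varied with an implied transcript length, worked out from each value, its deposited bound and the library's depth. The median log2 difference was 1.51 in the shortest of 10 classes and -0.62 in the longest. The implied length is not an annotated one and comes from the same values. For Hmgb2 it was 6339 bases, more than its locus spans. Ptma, Hmgn1 and Hmgn2 all lie in the third class, whose median was 1.80. With the length trend removed, Ptma stood at -0.18 (adjusted p 0.214) and Hmgn1 at -0.06 (adjusted p 0.743), so that their rise was not present on that scale. Hmgb3 and Hmgb1 were lower and called on all of these scales, at -3.15 to -1.37 and -1.53 to -0.61. Hmgn3 was also lower on all of them, at -7.24 to -5.53. Its calls are not read, since it passed the filter through the WT libraries. Without Control replicate 1 or without Control replicate 2, Ptma alone of the members was called, with adjusted p of 0.0348 and 0.0354, while the log2 differences of the other 5 kept their direction.

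**Figure D4:**
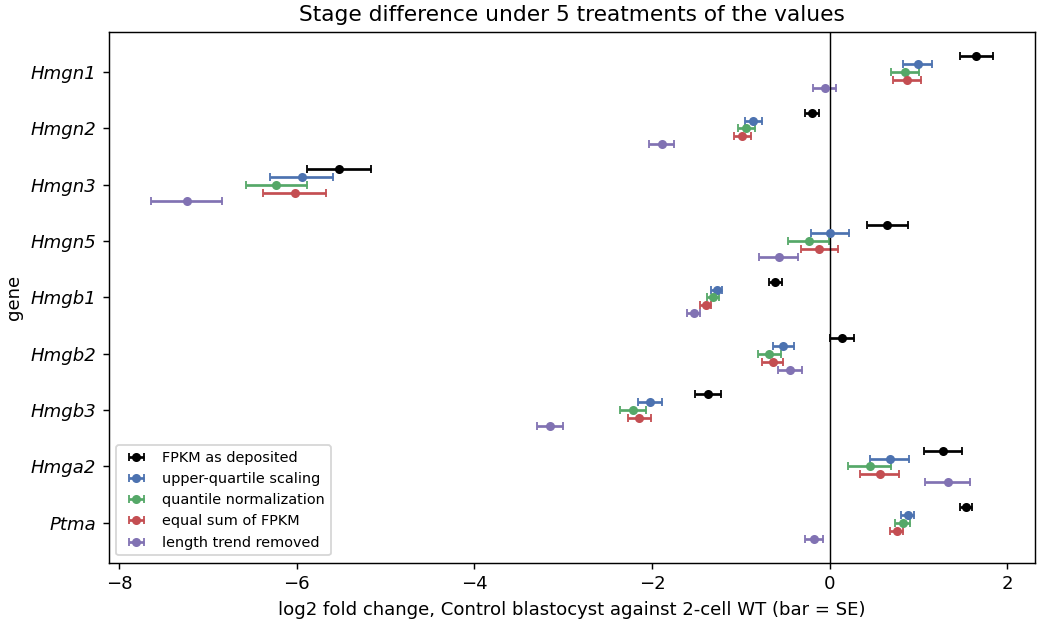
Log2 fold change between Control blastocysts and WT 2-cell embryos for the 9 tested genes, with its standard error. Shown are FPKM as deposited, 3 other scalings and removal of the trend with implied transcript length. Hmgn3, Hmgb3 and Hmgb1 lie below 0 throughout, and Ptma and Hmgn1 lie above 0 in all but the length-corrected values of -0.18 and -0.06.

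Of 26 HMG-box and acidic chromatin proteins, 9 rose and 6 fell between stages, beside 42.6% and 18.1% of all loci, with a list median of 0.34 against 0.92 over all loci. The 15 called of 26 are near the 60.7% of all loci. Yy1, a transcription factor that the list's name does not describe, is among the 6 that fell. Smarce1 and Ssrp1, HMG-box subunits of the SWI/SNF remodeller and of the FACT complex, went from 13.8 to 60.0 FPKM and from 7.52 to 39.4 FPKM (limma adjusted p 0.00294 and 0.00342). Dek and Nap1l1, which bind histones, went from 190.1 to 69.5 FPKM and from 172 to 62.6 FPKM (adjusted p 0.00276 and 0.00308). Ptms, listed at 0 in the 2-cell libraries, was at 48.3 and 63.7 FPKM in Control blastocysts and at 33.9, 42.5 and 48.8 FPKM in the libraries labelled Fzr1-OE. It passed the filter through the blastocyst libraries. Of 6 linker histones 4 rose and 1 fell. H1fx, at 0 FPKM in WT and 3.31 FPKM in Control, and H1foo passed the filter through 1 group, so this count is not read. With the length trend removed H1fx was not called (log2 difference 0.397, limma adjusted p 0.281). H1f0 went from 3.05 to 113 FPKM (log2 difference 4.82, SE 0.21, limma adjusted p 0.00151). H1foo, the oocyte linker histone, went from 9.94 to 0.0162 FPKM (log2 difference -3.34, SE 0.43). Of 7 prothymosin partners or Hmgb1 receptors, Keap1 and Kpna4 rose and Xpo1 fell. Keap1, at 0 FPKM in WT and 7.07 FPKM in Control, also passed the filter through 1 group. Without either Control replicate, Smarce1, Ssrp1, Nap1l1 and H1foo were no longer called, with adjusted p from 0.0537 to 0.137. The same held for Xpo1 (0.074 and 0.0644) and Kpna4 (0.281 and 0.299), and Kpna4 was not called with quantile normalization either (0.253).

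Genes that varied most like Hmgn2 and Ptma across the 11 libraries were sought among 3584 loci whose mean reached 5 FPKM in both stages, after centring each stage on its mean. For Hmgn2 they were Coil, Lxn, Sf3b5, Gak and Pdxdc1, with Pearson r from 0.946 to 0.975. For Ptma they were Snx6, Ythdf2, Brd1, Bzw1 and Pdcd10, with r from 0.970 to 0.977. On the same scale Hmgn2 and Ptma had r = -0.817, Hmgn2 and Hmgb1 -0.842, and Hmgb1 and Ptma 0.700. These are descriptions over 11 libraries in which libraries of a group share their treatment, so the IVF libraries weigh heavily in them.

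In subcutaneous fat of Fzr1-OE and Control mice, the members could be looked up only by name. The authors' deposited table of gene ontology terms for fat RNA named 449 symbols over 1605 terms, and the authors' deposited table for reduced-representation bisulfite sequencing named 119 over 632 terms. Of the 10 members, 0 were named in either table, which says nothing of their level there.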

How the data were processed

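Per the file headers, the authors deposited FPKM for each gene locus and library together with a confidence interval. Per the labels' protocols, cDNA from lysates was amplified over 18 to 20 cycles before sequencing. Cufflinks 2.2.1, Cuffdiff, HISAT2 2.1.0 and the build mm9 appear in the submitters' processing notes, with no role given. Depth was read from the upper bound, taken as 2 SD of a Poisson count above the value, and covers counting error only. Transcript length was implied from the same bound, the value and the depth, and was not taken from an annotation. Since that length exceeded the span of the Hmgb2 locus, the fragment counts read from the bounds are approximate too. Locus starts are given from 1.

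The fat and bisulfite tables are gene ontology tables in which the authors deposited a p-value per term, per the file headers. Their symbols were searched by name only.

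With limma 3.58.1 in R 4.3.3, using an intensity trend, log2(FPKM + 1) was tested at loci averaging at least 1 FPKM. Benjamini-Hochberg adjustment ran over all of them, and a gene passed at an adjusted p under 0.05. A common fit served the 6 libraries of 2-cell embryos, while blastocysts and the stage comparison had their own. The steps were tested on simulated data. Whether replicates were separate embryos or cultures is not stated, so p-values reflect only how these samples vary, which may be technical variation. Libraries of a stage correlated at Pearson r of 0.917 to 0.99.

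Members, gene lists and alternatives were chosen with earlier results of these data known. Besides the members, up to 3 called loci per direction of each list were picked for naming, or the 2 of smallest p where none was called. Not all of these loci are named in the text. The 5 loci most like Hmgn2 and Ptma were named, leaving out small RNAs and predicted or clone-based names. Values of H1f0 and Xpo1 in 2-cell embryos were added after they had been seen. Python 3.11.15, pandas 2.3.3, numpy 2.4.6 and matplotlib 3.10.9 were used. Alternatives were a pseudocount of 0.1, other filters, scalings and variance settings, a replicate block, removal of a length trend, a 2-fold threshold, other fits and leaving out each replicate. Rescaling to an equal FPKM sum was added after seeing the data.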

Additional observations from a re-analysis of the deposited data

How the results depend on the processing

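The number of members called in blastocysts was 0 under all 16 alternatives, and that between stages was 5 to 8 of 9 or 10 except without Control replicates, with a leave-one-out range of 1 to 8. In 2-cell embryos, whose comparisons chose the genes so that no support is drawn from calls, IVF against WT had 2 members called (Hmgn2 and Ptma) with a filter of 5 FPKM, and sIVF against IVF had 1 (Ptma) with that filter, with quantile normalization and with an equal FPKM sum. In blastocysts the sign turned for Hmgn2 without Fzr1-OE replicate 1 and for Hmgn5 without Control replicate 1, with leave-one-out ranges of -0.007 to 0.028 and -0.219 to 0.05. Between stages it turned for Hmgb2 with quantile normalization (-0.68), upper-quartile scaling (-0.52), length trend removed (-0.445) and an equal sum (-0.642). It turned for Hmgn5 with quantile normalization (-0.237), length trend removed (-0.572) and an equal sum (-0.114), and for Hmgn1 (-0.056) and Ptma (-0.178) with the length trend removed. The median of all loci between stages, 0.917, was then 0.009, 0.385, 0.081 and 0.294 with quantile, upper-quartile, length and equal-sum treatment, and the calls over all loci split into 2648 higher and 2822 lower, 3236 and 2374, 2439 and 2513, and 3073 and 2472. Hmga2 was not called with upper-quartile scaling (0.675) or an equal sum (0.564). Beyond the change of scale, the cause was not tested. Over all loci in blastocysts the 397 calls became 0 with no filter, 41 with no intensity trend and 87 to 350 when 1 library was left out. The replicate numbers did not pair the samples (correlations of deviations from -0.008 to 0.072); with a replicate block 0, 0, 0, 0 and 6 members were called, the counts without it, and 47 loci in blastocysts. Nap1l1 (adjusted p 0.184) and Npm1 (0.275) were not called with the block. Depth limits Hmgn3, Hmga1 and Hmga2 most.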
